A study of Mus musculus with 6 samples.

Results

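The splicing factors and RNA helicases of mouse liver were followed gene by gene in 3 male mice. Members were taken by gene symbol alone: the SR proteins (Srsf), the heterogeneous nuclear ribonucleoproteins (Hnrnp), the small nuclear ribonucleoprotein proteins (Snrp), the subunits of splicing factor 3 (Sf3), the pre-mRNA processing factors (Prpf), the U2 auxiliary factor (U2af), the Sm-like proteins (Lsm), the numbered RNA-binding motif proteins (Rbm) and the DEAD-box and DEAH-box helicases (Ddx and Dhx). That gave 117 genes with 173 probes, out of 7151 genes with a single annotated symbol on the arrays. No measured value entered this rule, but the rule was set with earlier results of these data known.

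Total liver RNA from 3 mice was hybridised to 2 kinds of expression array, called A and B, with 1 mouse in each group. One mouse was killed at 177 days on a calorie-restricted diet, one at 174 days on an ad libitum diet, and one at 17 days on an ad libitum diet. The title of the last gives 17 without a unit. It was read as days here, and another unit is possible. All 3 were male; strain, degree of restriction and its start were not given in the labels. The age comparison is 174 against 17 days on the ad libitum diet, the diet comparison is 177 days calorie-restricted against 174 days ad libitum, and the last one sets the calorie-restricted mouse against the 17-day mouse. Its differences are close to the sum of the other two. The livers are called restricted, 174-day and 17-day below.

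In splicing, Sm proteins form a ring around most spliceosomal small nuclear RNAs, and Sm-like proteins form the ring on U6 RNA. SR and hnRNP proteins bind the pre-mRNA and steer which sites are used, often in opposite directions, and the helicases drive each rearrangement of the spliceosome. Other helicases of the same fold work in ribosome assembly, translation or the sensing of viral RNA, so a shared symbol prefix does not mean a shared task.

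Array brightness differed: on array A the restricted, 174-day and 17-day livers had median intensities of 375, 35.8 and 364, and on array B of 333, 60.8 and 403. The 174-day arrays were thus the dimmest of both kinds, and their part in any difference from that mouse was not tested. Values below are intensities after quantile normalisation within each kind of array, and differences are on the log2 scale. A probe was used if it averaged more than the median probe of its array kind, and a gene's difference is the median over its used probes. By that measure 3865 genes were measured. Of the 7 hepatocyte marker genes on the arrays, 6 were measured, and their diet differences ran from -0.46 for Serpina1e to 1.18 for Alb, the serum albumin gene, with 3 above and 3 below 0. Alb had normalised intensities of 22608 in the restricted liver, 9990 in the 174-day liver and 12205 in the 17-day liver. In whole tissue, fewer cells of a type and less RNA per cell cannot be told apart. With 1 mouse per group no test could be made, so every difference below describes these 3 livers and no more.

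Of the 117 member genes, 67 were measured, through 86 probes. The Rbm family was covered best in number, with 16 of 23 genes measured, and Srsf best in share, with 6 of 7. Of Hnrnp 9 of 17 genes were measured, of Snrp 6 of 10, of Sf3 3 of 8, of Prpf 7 of 10, of Lsm 5 of 8, of Ddx 10 of 23 and of Dhx 5 of 10. The one U2af gene present, U2af1l4, was too dim. The 50 genes left out were dim in these arrays, which gives no statement on whether the liver uses them.

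As a whole, the splicing and helicase genes had medians close to those of all measured genes with both arrays together. In the age comparison their median difference was -0.04, against -0.03 over all measured genes, with 26 of 67 members higher in the 174-day liver and 41 lower. In the diet comparison the median was -0.03, against -0.04 over all genes, with 33 members higher in the restricted liver and 34 lower. Between the restricted and the 17-day liver it was -0.10, against -0.09, with 31 higher and 36 lower. Over all measured genes 46.3%, 47.2% and 41.1% were higher in these 3 comparisons, in that order. Every family count of higher and lower genes below stands beside these shares. Median centring of the arrays in place of quantile normalisation moved the median of all genes to 0.21, -0.31 and -0.16 in the 3 comparisons, and the members' median moved with it, to 0.21, -0.29 and -0.12. On array B alone the medians lay further apart, at -0.16 for members against -0.02 for all genes in the age comparison and at 0.07 against -0.09 in the diet comparison.

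Few member genes passed 2-fold, but few of all measured genes did, so counts of 0 or 1 among 67 do not mark the members out. In the age comparison 0 of 67 member genes were at least 2-fold apart, against 1.16% of all measured genes. In the diet comparison 1 was, Dhx57, against 6.86% of all genes. Between the restricted and the 17-day liver 0 were, against 1.58%. With a threshold of 1.5-fold, chosen after the data were seen, 4 members passed in the age comparison, against 8.59% of all genes. These were Hnrnpu, which was higher in the 174-day liver, and Srsf3, Ddx41 and Dhx57, which were lower. There were 17 in the diet comparison, against 28.5%, and 8 between the restricted and the 17-day liver, against 15.4%. The interquartile range of the members was 0.29 in the age comparison, 0.59 in the diet comparison and 0.58 between the restricted and the 17-day liver, against 0.42, 0.73 and 0.53 over all measured genes.

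**Figure D1:**
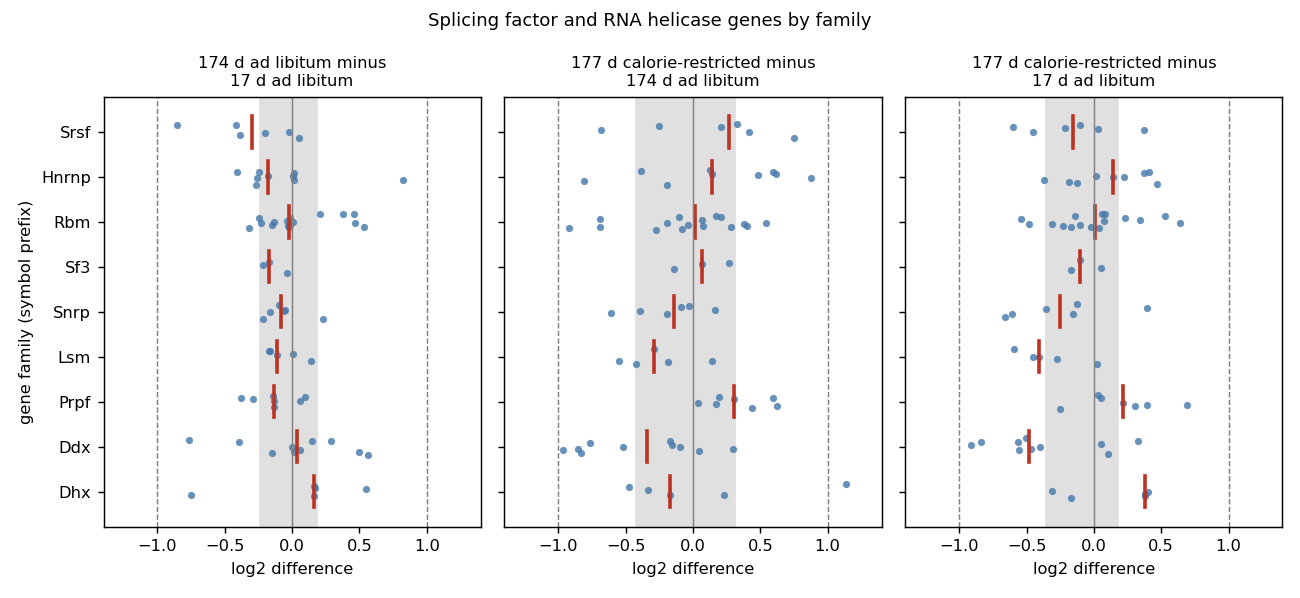
Log2 difference (horizontal axis) of each measured gene, 1 blue point per gene, in each family (rows) for 3 comparisons (panels). Red bars are family medians, the grey band is the interquartile range of all 3865 measured genes, and the dashed lines mark 2-fold; Dhx57 in the diet panel is the single point beyond them.

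The SR proteins bind exonic enhancers and recruit the splicing machinery. Of their 6 measured genes, 1 was higher at 174 than at 17 days and 5 were lower, with a median of -0.30, and 4 were higher and 2 lower in the restricted than in the 174-day liver, with a median of 0.26. Both comparisons use the 174-day liver, so they are not separate observations. With median centring the age split was 3 and 3 with a median of -0.03, and on array A alone the age median was 0.05; the diet median was 0.09 with median centring or after the correction for spot position described below, and -0.02 with the top 25% of probes. Srsf3, which regulates exon use and mRNA export, had normalised intensities of 270 in the restricted liver, 160 in the 174-day liver and 290 in the 17-day liver. It was low in the 174-day liver alone, with a difference of -0.85 for age and 0.75 for diet. The differences were -0.64 and 0.91 after a correction for spot position, which removes the median deviation of the block of spots that a probe lies in and of its place within a block, and -0.28 and 0.10 when its dimmer probes were let in.

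Srsf10, an SR protein that represses splicing when dephosphorylated, was seen by 3 used probes. One array A probe had normalised intensities of 691 in the restricted liver, 1111 in the 174-day liver and 1127 in the 17-day liver. The other array A probe had 476, 867 and 722 in the same order. The array B probe had 3739, 3433 and 4822, so it was lowest in the 174-day liver while both array A probes were lowest in the restricted liver. The diet differences of these probes were -0.69, -0.86 and 0.12, while all 3 were lower in the restricted than in the 17-day liver, by differences of -0.71, -0.60 and -0.37. Srsf2, which binds exonic enhancers, was highest of the family against the 17-day liver, with a difference of 0.37, at 424 in the restricted liver, 339 in the 174-day liver and 327 in the 17-day liver. That difference was 0.01 after the correction for spot position, and its diet difference of 0.32 was then -0.01.

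The hnRNP proteins coat nascent transcripts and often silence exons. Of their 9 measured genes, 6 were higher and 3 lower in the restricted than in the 174-day liver, with a median of 0.14 (-0.13 with the top 25% of probes); 4 were higher and 5 lower at 174 than at 17 days, with a median of -0.18 (0.01 with the top 25%). Hnrnpa1, a repressor of exon inclusion, had a pair of array B probes that ran alike. One read 337 in the restricted liver, 179 in the 174-day liver and 242 in the 17-day liver, and the other read 560, 312 and 406. The restricted liver was highest and the 174-day liver lowest on both, with diet differences of 0.92 and 0.84, which came to 0.35 and 0.34 after the correction for spot position.

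Hnrnpu, a nuclear scaffold protein that binds RNA and chromatin, had normalised intensities of 212 in the restricted liver, 371 in the 174-day liver and 210 in the 17-day liver on its 1 used probe. It was the member with the highest age difference, 0.82, and its diet difference was -0.81. When its dimmer probes were let in, the gene's age difference was 0.12 and its diet difference 0.04. Hnrnpl, which binds CA-rich RNA, was lowest of the family between the restricted and the 17-day liver, at 574 against 744, a difference of -0.37, with 750 in the 174-day liver.

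The Rbm proteins share an RNA recognition motif and little else, and their 16 measured genes divided evenly in the diet comparison, with 8 higher and 8 lower in the restricted liver and a median of 0.02. In the age comparison 6 were higher and 10 lower in the 174-day liver, with a median of -0.02. Rbm6, an RNA-binding protein related to the splicing regulator Rbm5, had the lowest diet difference of the family on a probe of each array. Its array A probe read 325 in the restricted liver, 553 in the 174-day liver and 511 in the 17-day liver. Its array B probe read 536, 1128 and 723 in the same order. Both were lowest in the restricted liver and highest in the 174-day liver, with diet differences of -0.77 and -1.07. After the correction for spot position these were -0.11 and -0.45.

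Rbm34, an RNA recognition motif protein, lay at the other end, and its 2 array A probes ran alike. They read 374 and 794 in the restricted liver, 261 and 534 in the 174-day liver, and 250 and 570 in the 17-day liver. The restricted liver was highest on both, with diet differences of 0.52 and 0.57, and with 0.41 and 0.38 after the correction for spot position. Rbm47, a cofactor of C-to-U RNA editing, had the highest age difference of the family, 0.53, at 941 in the restricted liver, 1074 in the 174-day liver and 742 in the 17-day liver. Rbm12b1 had the lowest, -0.32, at 732 in the restricted liver, 554 in the 174-day liver and 692 in the 17-day liver. Rbm14, a nuclear coactivator found in paraspeckles, had the highest difference between the restricted and the 17-day liver, 0.64, at 208 against 133; it came to 0.16 after the correction for spot position.

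**Figure D2:**
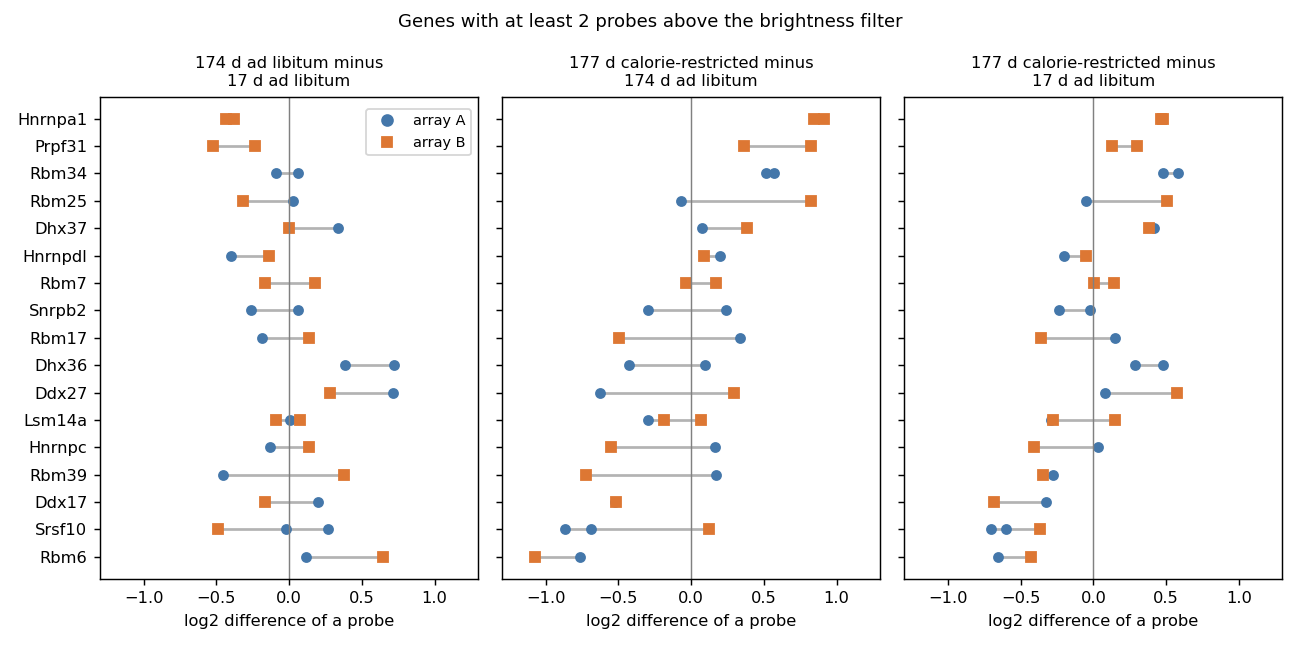
Log2 difference (horizontal axis) of each used probe for the 17 member genes with at least 2 of them (rows, ordered by the diet difference), in 3 comparisons (panels); circles are array A, squares array B, and grey lines join the probes of a gene. Hnrnpa1, Rbm34 and Rbm6 have probes close together and away from 0 in the diet panel, while the Rbm25, Rbm39 and Srsf10 probes lie on both sides of it.

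In the 17 member genes with at least 2 used probes, the spread between probes of a gene had an SD of 0.27 in the age comparison, 0.40 in the diet comparison and 0.21 between the restricted and the 17-day liver, against an SD between all 67 member genes of 0.31, 0.46 and 0.37. All probes of a gene lay on the same side of 0 in 6, 7 and 13 of the 17 genes. A difference smaller than that spread on a single probe is within the disagreement of probes. The stretch of transcript that each probe covers was not analysed here.

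The genes of the Sm and Sm-like proteins that build the rings of the small nuclear RNAs had a median below 0 for the restricted liver against either other liver. That held in the main processing and under each of the 11 alternatives run, which were not 11 separate checks. Each measured gene had 1 used probe, so taking the brightest probe could change nothing. The 25th-percentile floor and leaving out spots of exactly 10 or at least 1.5 log2 apart left the Snrp and Lsm medians unchanged. Array A alone held only Lsm7 of this group. Of 12 Sm and Sm-like core genes on the arrays, 7 were measured. In the restricted liver 6 of them were lower than in the 174-day liver, with a median of -0.39, and over all measured genes 52.7% were lower. Against the 17-day liver, 6 of the 7 were also lower in the restricted liver, with a median of -0.41, where 58.8% of all genes were lower. The restricted liver enters both comparisons, so these counts share its arrays. The measured genes other than Lsm7 lay on array B. On array B alone, 56.4% of all genes were lower in the diet comparison and 60.7% against the 17-day liver. Over the 11 alternatives the median lay between -0.87 and -0.29 in the diet comparison and between -0.62 and -0.35 against the 17-day liver. In the age comparison 6 of 7 were lower in the 174-day liver, with a median of -0.12, which was 0.06 after the correction for spot position and 0.21 with median centring.

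Snrpb, which encodes the SmB protein, had normalised intensities of 535 in the restricted liver, 816 in the 174-day liver and 846 in the 17-day liver. Its differences were -0.61 for diet and -0.66 against the 17-day liver, the lowest of the group. Snrpg, encoding SmG, had 313, 410 and 477 in the same order, and Snrpe, encoding SmE, had 3484, 3993 and 4470. In all 3 genes the restricted liver was lowest and the 17-day liver highest. Snrpd2, encoding SmD2, differed least of the Sm genes, at 218 in the restricted liver, 233 in the 174-day liver and 243 in the 17-day liver.

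Among the Sm-like genes of the U6 ring, Lsm8 had 751 in the restricted liver, 1009 in the 174-day liver and 1134 in the 17-day liver. Lsm7 had 825, 1205 and 1096 in the same order, with a diet difference of -0.55, but its dimmer array B probe brought the gene's diet difference to 0.004 when let in. Lsm3 was the exception, at 461 in the restricted liver, 418 in the 174-day liver and 453 in the 17-day liver. The 5 genes of the group too dim to be measured, Lsm2, Lsm5, Lsm10, Snrpd1 and Snrpf, had diet differences of -0.83, -0.56, -0.55, -0.40 and -0.94, and of -0.50, 0, -0.26, -0.35 and -0.27 against the 17-day liver. All 5 lay below the brightness filter. Of 9 measured markers of dividing cells, 6 were higher and 3 lower in the restricted than in the 174-day liver, from -0.75 for Mcm6 to 1.44 for Cdk1, with a median of 0.27, and of -0.02 on array B alone. Their part in the values of the Sm group was not tested.

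**Figure D3:**
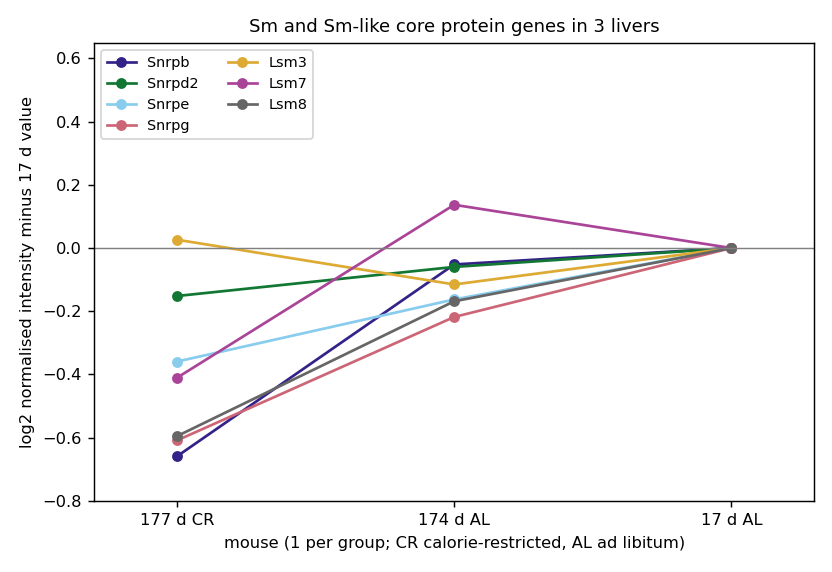
Log2 normalised intensity (vertical axis) of the 7 measured Sm and Sm-like core genes in each of the 3 mice (horizontal axis), as a difference from the 17-day liver; points are single mice, and lines join the points of a gene. Snrpb, Snrpg and Lsm8 lie at -0.66, -0.61 and -0.60 in the restricted liver, and Lsm3 lies at 0.03.

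Because 6 of these 7 genes lay on the same side of 0, the 250 bases before the start of each were read from RefSeq (GRCm38.p6), which held 6 of the 7 genes, all but Snrpb. The letters CCGGAA, which hold the GGAA core bound by ETS factors, stood on either strand in 2 of the 6, Snrpe and Snrpg. They stood in 12.03% of all 32851 promoters. Other sequences with GGAA were not searched for, so a promoter without CCGGAA may still hold that core. CCAAT stood in 1 of the 6, against 33.8% of all; GGGCGG, the GC box, in 4, against 32.7%; and TATAAA, the TATA box, in 0, against 12.4%. No motif searched holds another, and a match describes the letters only, not a bound site. The pair with CCGGAA is shown with those letters in capitals, TTCCGG being the same letters on the other strand. Snrpe lies on the minus strand at chr1:133610281-133610530 and Snrpg on the plus strand at chr6:86371290-86371539.
Snrpe: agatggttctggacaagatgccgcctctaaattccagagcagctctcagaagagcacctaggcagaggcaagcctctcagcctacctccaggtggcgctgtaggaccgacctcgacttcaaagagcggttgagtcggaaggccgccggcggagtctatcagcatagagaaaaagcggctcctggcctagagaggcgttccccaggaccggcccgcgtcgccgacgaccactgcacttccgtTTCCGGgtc
Snrpg: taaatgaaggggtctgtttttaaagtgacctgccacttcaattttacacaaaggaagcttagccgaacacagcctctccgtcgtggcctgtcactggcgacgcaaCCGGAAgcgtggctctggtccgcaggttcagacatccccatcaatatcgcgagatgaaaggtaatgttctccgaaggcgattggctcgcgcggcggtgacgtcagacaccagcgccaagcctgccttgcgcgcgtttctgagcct

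Snrpc, the U1 snRNP protein that helps recognise the 5′ splice site, was highest of the Snrp family in all 3 comparisons. It had 966 in the restricted liver, 862 in the 174-day liver and 737 in the 17-day liver. Its difference of 0.39 against the 17-day liver lay between 0.20 and 0.44 over the alternatives. Its diet difference of 0.16 was -0.18 with median centring. Of the 3 measured Sf3 genes, which belong to the U2 snRNP that binds the branch site, Sf3b2 had 686 in the restricted liver, 569 in the 174-day liver and 661 in the 17-day liver. Sf3a2 had 2925, 3221 and 3300 in the same order. The Sf3 differences lay between -0.22 and 0.27 in every comparison in the main processing. With median centring those of Sf3a2 were -1.16 for diet and -0.63 against the 17-day liver. Without the brightness filter the diet difference of Sf3b2 was -0.60. With the dim genes let in, the diet median of the Sf3 family was -0.59, with 1 of 8 genes higher in the restricted liver and 7 lower.

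Lsm14a, a Sm-like protein that represses mRNA translation in the cytoplasm and is not part of the U6 ring, was seen by 3 used probes. Their diet differences were -0.30, 0.07 and -0.19, and their age differences 0.01, 0.08 and -0.09. The gene had a diet difference of -0.19, which was -0.84 with median centring. Lsm14b, the other measured Lsm gene outside the Sm and Sm-like core list, had 1 used probe. Its differences were -0.29 for diet and -0.45 against the 17-day liver, and -0.71 and -0.45 after the correction for spot position. A lower value in the restricted liver was thus not particular to the core list.

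The Prpf proteins assemble and activate the spliceosome. All 7 measured genes were higher in the restricted than in the 174-day liver, with a median of 0.30, where 47.2% of all measured genes were higher. Against the 17-day liver 6 of 7 were higher, with a median of 0.21, where 41.1% of all genes were higher. The diet count was 6 of 7 with loess or with the correction for spot position and 4 of 7 with median centring. The diet median stayed above 0 under each of the 11 alternatives, from 0.10 to 0.61. The 25th-percentile floor, the brightest probe and leaving out spots of exactly 10 or at least 1.5 log2 apart left that median unchanged. Array B alone, which gave 0.61, held 2 of the genes. The 3 genes too dim to be measured were less even: Prpf3 had a diet difference of 0.18, Prpf38a -0.91 and Prpf6 -1.63.

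Prpf18, which acts in the second step of splicing, had normalised intensities of 609 in the restricted liver, 394 in the 174-day liver and 378 in the 17-day liver. It was the highest member between the restricted and the 17-day liver, with a difference of 0.69, which came to 0.30 after the correction for spot position. Prpf31, which joins the U4/U6 and U5 particles, was higher in the restricted than in the 174-day liver on a pair of array B probes. They read 4118 against 3197 and 1058 against 597, and the 17-day liver had 3769 and 859. With median centring the differences of Prpf31 were -0.09 for diet and -0.06 against the 17-day liver. Prpf8, the U5 protein at the catalytic core, had 289 in the restricted liver, 234 in the 174-day liver and 219 in the 17-day liver. Prpf4b, a kinase of splicing factors, had the lowest diet difference of the family, 0.04, at 3640, 3551 and 4345 in the same order. That difference was -1.09 with median centring, -0.10 with loess and -0.11 after the correction for spot position.

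The measured DEAD-box helicases leaned the other way from the measured Prpf genes. Of 10 measured Ddx genes, 2 were higher and 8 lower in the restricted than in the 174-day liver, with a median of -0.35, and 3 were higher and 7 lower than in the 17-day liver, with a median of -0.49. That lean depended on the processing: after the correction for spot position the diet count was 4 higher and 6 lower, with a median of -0.01, and the median against the 17-day liver was -0.17. With the dim genes let in, 10 of 23 Ddx genes were higher and 11 lower in the diet comparison, with a median of 0. Against the 17-day liver 12 were then higher and 10 lower, with a median of 0.06. On array B alone that median was also 0.06. Of the 5 measured Dhx genes, 2 were higher and 3 lower in the diet comparison, with a median of -0.17, which was 0.38 on array B alone.

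Grouped by task, 4 helicases of the spliceosome were measured out of 9 on the arrays. All 4 were lower in the restricted than in the 17-day liver, where 58.8% of all genes were lower. Their median was -0.39, and without the brightness filter it was 0.04. In the diet comparison 3 of the 4 were lower, where 52.7% of all genes were lower. That median was -0.41, and 0.30 without the brightness filter. Once spot position was corrected for, 3 of the 4 were lower against the 17-day liver, and 2 of the 4 in the diet comparison. Ddx17, an RNA helicase that also acts as a transcriptional coactivator, had 472 and 448 in the restricted liver on a probe of each array, 680 and 641 in the 174-day liver, and 592 and 720 in the 17-day liver. The restricted liver was lowest on both probes, with diet differences of -0.53 and -0.52, which came to 0.01 and -0.36 after the correction for spot position. Ddx41, which joins the catalytic spliceosome, had 225 in the restricted liver, 183 in the 174-day liver and 310 in the 17-day liver. Its age difference of -0.76 was the lowest of the Ddx family and came to -0.27 after the correction for spot position. Dhx38, which remodels the spliceosome between its catalytic steps, had 251 in the restricted liver, 317 in the 174-day liver and 282 in the 17-day liver. Dhx8, which releases the spliced mRNA, had 679, 943 and 842 in the same order. Its differences of -0.48 for diet and -0.31 against the 17-day liver were 0.14 and 0.29 once corrected for spot position.

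Of the helicases of ribosome assembly, 6 of 13 on the arrays were measured, and 2 were higher and 4 lower in the restricted than in the 174-day liver, with a median of -0.16, which was -0.70 on array A alone and 0.17 on array B alone. Ddx52 had normalised intensities of 638 in the restricted liver, 1138 in the 174-day liver and 1140 in the 17-day liver, so that only the restricted liver stood apart. Its differences were -0.83 for diet and -0.84 against the 17-day liver, and they were -0.29 and -0.53 when its dimmer probes were let in. Ddx31 had 134, 228 and 252 in the same order, and its difference of -0.91 against the 17-day liver was the lowest of all members but came to -0.20 after the correction for spot position. Ddx24 had 1493 in the restricted liver, 1667 in the 174-day liver and 2193 in the 17-day liver.

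Dhx37, which acts in small subunit assembly, was seen by a probe on each array. They read 1806 and 2328 in the restricted liver, 1712 and 1784 in the 174-day liver, and 1355 and 1784 in the 17-day liver, so the restricted liver was highest on both; the diet difference of 0.23 was -0.56 with median centring and 0.72 after the correction for spot position. Ddx27 had a used probe on each array, with age differences of 0.71 and 0.28 and diet differences of -0.63 and 0.29. Its remaining, dim probe had an age difference of 2.86 and a diet difference of -2.96, with the 174-day array B alone standing apart.

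The cytoplasmic helicases held the single 2-fold difference. Of 5 measured genes, 1 was higher and 4 were lower in the restricted than in the 174-day liver, and 4 were higher and 1 lower at 174 than at 17 days. Dhx57, a DEAH-box protein whose task is little known, had normalised intensities of 546 in the restricted liver, 249 in the 174-day liver and 419 in the 17-day liver on 1 array B probe. The 174-day liver was lowest, and the diet difference was 1.13. After the correction for spot position it was 0.27, and the age difference of -0.75 came to -0.46.

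Ddx58, the RIG-I sensor of viral RNA, ran opposite to Dhx57, at 200 in the restricted liver, 390 in the 174-day liver and 265 in the 17-day liver. Its diet difference of -0.96 was the lowest of all members and came to -0.47 after the correction for spot position. Ddx3x, which aids translation initiation, had 138 in the restricted liver, 249 in the 174-day liver and 204 in the 17-day liver. Its differences of -0.85 for diet and -0.56 against the 17-day liver were -0.19 and 0.17 when its dimmer probes were let in. Dhx36, which unwinds G-quadruplexes, was higher at 174 than at 17 days on a pair of array A probes, at 394 against 302 and at 223 against 136, with 420 and 166 in the restricted liver. The germ-cell helicase Ddx4 differed little, at 377, 403 and 363 in the restricted, 174-day and 17-day livers.

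**Figure D4:**
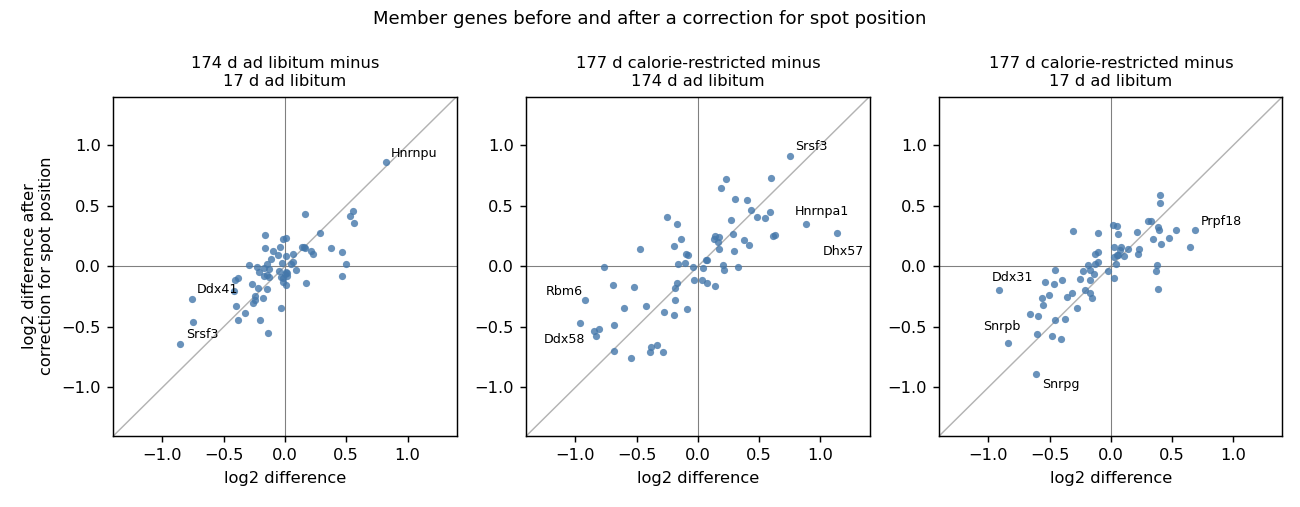
Log2 difference of each of the 67 measured member genes before (horizontal axis) and after (vertical axis) a correction for spot position, in 3 comparisons (panels); each point is a gene and the diagonal marks no move. Dhx57 moves to 0.27 in the diet panel and Ddx31 to -0.20 in the right panel, while Hnrnpu lies at 0.86 in the age panel and Snrpg lies at -0.89 in the right panel.

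The correction for spot position thus changed many of the members' differences, and not only toward 0. Closer to 0 were 37 of 67 in the age comparison, 36 in the diet comparison and 42 between the restricted and the 17-day liver. Whether spot position lay behind the differences was not tested. After the correction, 52 of 67 member genes kept their sign in the diet comparison, 50 in the age comparison and 57 between the restricted and the 17-day liver, and the diet differences ran from -0.76 to 0.91. The diet comparison then had 0 members at least 2-fold apart, against 2.92% of all genes. Without the brightness filter, 2 members were at least 2-fold higher at 174 than at 17 days, against 3.22% of all genes. They were the U5 protein gene Prpf6, at 1.79, and the Sf3b subunit gene Sf3b4, at 1.77, each on a dim probe. In the diet comparison without that filter 3 members were at least 2-fold apart, against 7.44% of all genes: Dhx57, which was higher, and Prpf6 and Sf3b4, at -1.63 and -1.15. With median centring 11 were, 1 higher and 10 lower, against 17.1% of all genes.

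By order of the mice, the restricted liver held the highest value in 26 of 67 member genes and the lowest in 29, the 174-day liver in 16 and 24, and the 17-day liver in 25 and 14. Over all measured genes the shares of highest and lowest were 34.3% and 45.8% for the restricted liver, 35.5% and 36.5% for the 174-day liver and 30.2% and 17.6% for the 17-day liver.

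Splicing genes outside the named families were followed as 3 further lists. Of 18 other measured spliceosome proteins, Wbp4, a WW-domain protein of the spliceosome, had the lowest diet difference, -1.24, with 331 in the restricted liver, 782 in the 174-day liver and 690 in the 17-day liver. Against the 17-day liver it was -1.06. With its dimmer probes let in these were -0.56 and -0.41, neither of them 2-fold. Luc7l3, a U1-associated protein, had a diet difference of -1.20. Cdc5l, a core protein of the catalytic spliceosome, was highest against the 17-day liver, at 814 in the restricted liver and 498 in the 17-day liver, with 615 in the 174-day liver; that difference of 0.71 was 0.19 after the correction for spot position. Cdc40, a second-step factor, had the highest diet difference, at 261 against 174, with 235 in the 17-day liver; that difference of 0.58 was 0.10 after the correction. Syf2, a spliceosome protein, had a pair of probes that disagreed, with diet differences of -0.76 and 1.42.

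Of 27 other measured splicing regulators and SR protein kinases, 0 were at least 2-fold apart in any comparison, beside the 1.16%, 6.86% and 1.58% of all genes for age, for diet and against the 17-day liver. Tra2b, an SR-like activator of exons, had 383 in the restricted liver, 220 in the 174-day liver and 239 in the 17-day liver. Rbfox2, which binds introns beside regulated exons, was lower in the restricted liver on a probe of each array, with diet differences of -1.10 and -0.72; the gene had -0.91, and -0.37 after the correction for spot position. Tardbp, an RNA-binding repressor of cryptic exons, had 1370 in the restricted liver, 2028 in the 174-day liver and 2272 in the 17-day liver. Its differences of -0.57 for diet and -0.73 against the 17-day liver were 0.03 and 0.02 after the correction, and 0.01 and 0.12 without the brightness filter. Clk4, a kinase of SR proteins, had the highest age difference, 0.61, and Mbnl3, of the muscleblind family, the lowest, -0.54, which was -0.21 after the correction.

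Of 12 measured genes of the exon junction complex, mRNA export, the SMN complex and other helicases, Gemin5, the SMN complex subunit that recognises small nuclear RNAs, had the lowest diet difference, -1.03, at 327 in the restricted liver and 670 in the 174-day liver, with 430 in the 17-day liver. Supv3l1, a mitochondrial helicase, had the highest, 0.75, which was 0.07 after the correction for spot position. Against the 17-day liver Dicer1, the nuclease of microRNA maturation, was highest at 0.58, or 0.09 after the correction, and Thoc6, an mRNA export protein, lowest at -0.67, or -0.45. Alyref, an mRNA export adaptor, had the lowest age difference, -0.41, which was -0.06 with median centring.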

How the data were processed

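Spot intensity on a linear scale was deposited for 3 mice on arrays A and B. How the authors made these deposited intensity values (label, scanner, background, scaling) is not stated in the labels or file headers. Probes were named through GEO's platform annotation; of 16896 spots, 9663 had 1 symbol. All 117 member genes matched RefSeq by gene number.

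A floor was set per array at its 5th percentile; log2 values were quantile-normalised across the 3 mice, for A and B separately. Probes entered if their mean exceeded the 50th percentile. A gene's difference was the median over entering probes, called at 2-fold. Alternatives were median centring, loess (span 0.3), no filter, the top 25% of probes, a 25th-percentile floor, only the brightest probe, each array alone, leaving out spots of exactly 10 or spots at least 1.5 log2 apart, and a position correction over 16 blocks of 528 spots. Added after the data were seen was a 1.5-fold threshold. Named genes were members at least 2-fold apart, the highest and lowest of each family and list, and genes with at least 3 entering probes. Others were chosen after their values were seen: Snrpe, Snrpd2, Lsm14b, Rbm25, Rbm39, Ddx4, Luc7l3 and the dim genes. The members and lists were chosen with earlier results of these data known. The procedure was tested on simulated data with planted differences of at least 2-fold in bright genes and no effect of spot position. That test does not bear on smaller differences. Python 3.11.15, numpy 2.4.6, pandas 2.3.3, statsmodels 0.14.6 and matplotlib 3.10.9 were used.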

Additional observations from a re-analysis of the deposited data

How the results depend on the processing

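No paired analysis was possible because each group held 1 mouse, and no replicate could be left out. Of 1488 values of named genes recomputed under the alternatives, 1353 moved by less than the SD between probes of a gene, and 135 by more. That SD was 0.27 for age, 0.40 for diet and 0.21 between the restricted and the 17-day liver. Many of the 1353 could not move or did not. Taking the brightest probe cannot change a gene with 1 used probe, nor can its own array alone change a gene on 1 array. The 25th-percentile floor and leaving out spots of exactly 10 or at least 1.5 log2 apart left the members' medians unchanged. A reversal was counted only for main differences of at least 2-fold, and there were 0. Only Dhx57, Gemin5 and Wbp4 for diet, and Wbp4 against the 17-day liver, could be counted so. Smaller differences could change sign uncounted, as that of Srsf10 for age did under 4 alternatives. For age, the count of members past 2-fold was 2 without the brightness filter and 4 at 1.5-fold, beside 3.22% and 8.59% of all genes. In the diet comparison, where it was 1, it was 11 with median centring, 2 with loess, 3 without the filter, 0 with the top 25% of probes, 2 with the brightest probe, 0 on array A alone, 2 on array B alone, 0 after the correction for spot position and 17 at 1.5-fold. The shares of all genes past 2-fold were then 17.1% with median centring, 7.57% with loess, 7.44% without the filter, 4.57% in the top 25%, 7.24% with the brightest probe, 7.62% on array A, 6.84% on array B and 2.92% after the correction, with 28.5% past 1.5-fold. Between the restricted and the 17-day liver it was 8 at 1.5-fold, beside 15.4%. The members' median was 0.21 with median centring and -0.16 on array B alone for age, -0.29 with median centring for diet, and 0.0133 after the position correction between the restricted and the 17-day liver. The cause of these moves was not tested. With a single mouse per group, the number of arrays limits the precision of every value.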
